A study of Mus musculus with 12 samples.

Results

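The interferon-inducible GTPases are enzymes that cells make in large amounts when interferon reaches them. The immunity-related GTPases (IRG proteins) and the guanylate-binding proteins (GBP proteins) load onto the membranes of vacuoles that hold microbes, and some of them also act on autophagy, the pathway that delivers cell contents to lysosomes. Irgm1 is the mouse counterpart of IRGM, a gene linked to Crohn's disease. The 9 genes described here were chosen by name from the 47632 genes of each expression table. They are 7 GTPases (Irgm1, Irgm2, Igtp, Tgtp1, Gbp2, Gbp3 and Gbp7) and 2 interferon regulatory factors (Irf1 and Irf7), transcription factors that drive the interferon response. The question was whether the higher level of Irgm1 in animals lacking epithelial Tfeb came with higher levels of other interferon-induced genes. On Day 4 of colitis Irgm1, Irf1, Irf7 and Igtp were higher in those animals by 2.49-fold to 6.89-fold in single pooled values. Of all genes, 25.6% were higher by at least 2-fold that day, and Irf7 and Igtp were each under 2-fold in some of the alternative processing described further on. The other GTPases were near or under 1 FPKM, and lists of interferon-induced genes held members that were higher and members that were lower.

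The samples were epithelial cells from the colons of C57/BL6 mice, released with EDTA. In Tfeb ΔIEC animals, villin-driven Cre recombinase removes the gene for the transcription factor TFEB from the intestinal epithelium, and in Tfeb flox/flox controls the floxed gene is intact. Both genotypes were sampled on Day 0 (untreated), on Day 4 of dextran sulfate sodium (DSS, which injures the colon epithelium; 2.5% per the labels) and on Day 11, after recovery, with 2 animals per group and 12 in all. The animals were 10 and 12 weeks old on Day 0, 12 weeks on Day 4 and 10 weeks on Day 11, in both genotypes. The files hold a single FPKM (a read-pair count per length of transcript and per size of the library) for each gene, genotype and day, which the authors made from both animals, so the values used here carry no error. The authors' own p-values were not used, so no difference is set against the spread between animals. All genotype differences below are therefore descriptions of pooled values, without a test.

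Interferon gamma acts on genes through gamma-activated sequences (GAS), and Irf1 is a classical early target of it. Type I and type III interferons act through a complex with STAT2 and IRF9, which binds the interferon-stimulated response element. IRF proteins recognise a core of that element, and Irf7 amplifies the type I response. The promoters of the genes show both kinds of sequence, and they are printed here because each GTPase gene holds at least one of them close to its start site. The IRF element core was searched as GAAANNGAA and the GAS core as TTCNNNGAA, on both strands, in the RefSeq promoter windows of the GRCm38.p6 assembly (the assembly of mm10), from 250 bases before to 50 bases after each start site. The runs below cover the 120 bases before the start site, 5′ to 3′ on the strand of the gene, without bases that GENCODE M21 places in an exon of a coding transcript of that gene. Capitals mark matches to either core. For Irgm2 and Gbp7 the sequence after the RefSeq start site was not found near the start of a GENCODE transcript of that gene.
Irgm1, minus strand, chr11:48871421-48871540: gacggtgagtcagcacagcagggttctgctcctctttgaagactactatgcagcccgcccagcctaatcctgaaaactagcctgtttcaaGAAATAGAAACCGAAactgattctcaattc
Irgm2, plus strand, chr11:58214857-58214976: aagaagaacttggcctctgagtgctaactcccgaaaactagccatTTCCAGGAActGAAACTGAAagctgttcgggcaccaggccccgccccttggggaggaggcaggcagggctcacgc
Igtp, plus strand, chr11:58199436-58199555: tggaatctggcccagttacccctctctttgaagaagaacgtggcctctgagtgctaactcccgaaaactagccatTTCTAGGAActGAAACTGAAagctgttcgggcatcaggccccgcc
Tgtp1, minus strand, chr11:48992259-48992366: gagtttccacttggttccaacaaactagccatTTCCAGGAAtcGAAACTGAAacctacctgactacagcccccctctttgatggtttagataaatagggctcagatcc
Gbp3, plus strand, chr3:142559924-142560025: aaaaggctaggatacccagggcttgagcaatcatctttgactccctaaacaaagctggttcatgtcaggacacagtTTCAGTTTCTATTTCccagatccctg
Gbp7, plus strand, chr3:142530216-142530335: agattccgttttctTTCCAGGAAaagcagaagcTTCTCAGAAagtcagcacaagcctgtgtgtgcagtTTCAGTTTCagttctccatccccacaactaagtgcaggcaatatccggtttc
Irf1, plus strand, chr11:53769894-53770013: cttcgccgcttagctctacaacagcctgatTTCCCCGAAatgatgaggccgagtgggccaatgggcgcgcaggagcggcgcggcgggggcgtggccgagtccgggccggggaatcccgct

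The IRF element core was present in a promoter of 7 of 7 GTPase genes, against 8.56% of the 32851 promoters in the table. Genes were counted once, with a match at any of their start sites, whereas the share of all is over single promoters. It was also found for 21 of the 38 genes (55.3%) with a promoter entry in the list known for induction by type I and III interferon, and for 5 of 22 (22.7%) in the interferon gamma list. Irgm1 holds a pair of overlapping cores, which start 30 and 24 bases before its start site, in a stretch that GENCODE also places in a non-coding Irgm1 transcript. Gbp2 holds 1 (TTCACTTTC, on the other strand, 58 bases before the RefSeq start site), inside the first exon of the GENCODE model of Gbp2. The GAS core was present in a promoter of 4 of 7 GTPase genes (Irgm2, Igtp, Tgtp1 and Gbp7) and of Irf1, where it starts 90 bases before the start site. The share was 8.30% of all promoters, 21.1% of genes in the type I and III list and 4.55% of genes in the interferon gamma list. In Irgm2, Igtp and Tgtp1 an IRF core follows the GAS core after 2 bases without overlap, an arrangement found in 8 of the 32851 promoters, these among them. That spacing was not among the motifs planned for the search. The genes are also related, and the windows of Irgm2 and Igtp are nearly the same around the cores, so these are not independent matches. Neither core was found in the window of Irf7, nor in those of second start sites of Gbp3 and Irf1. The E box CACGTG, the kind of site that TFEB recognises, and its longer form TCACGTGA were in 0 of the 9 genes' promoters, against 7.15% and 0.974% of all promoters. These are matches of letters within 300 bases, not measured binding.

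**Figure D1:**
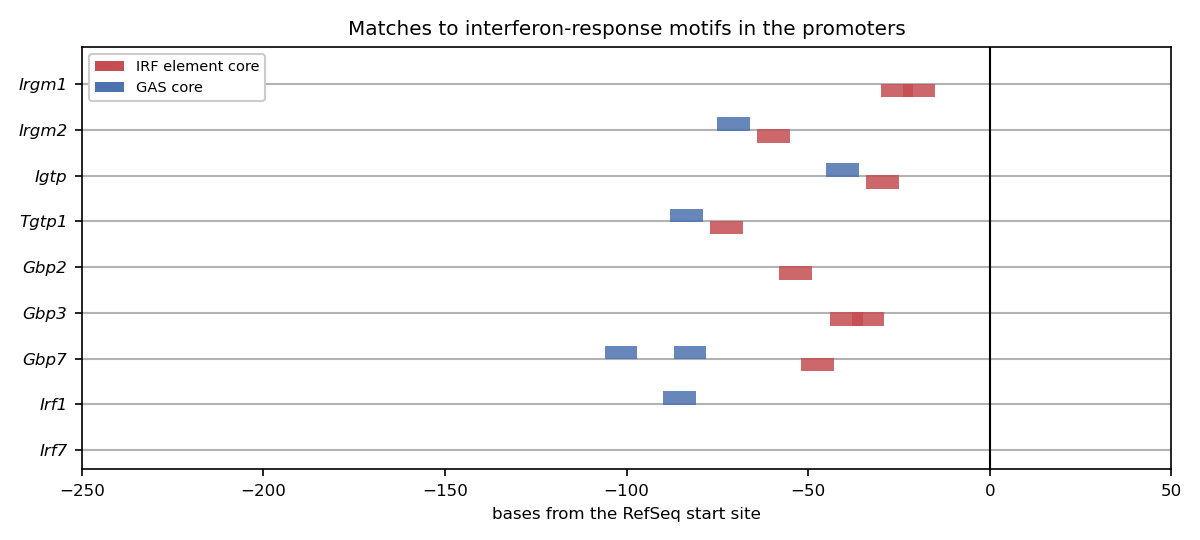
Positions of matches to the IRF element core and to the GAS core (bars, both strands) in the promoter of each gene, with the distance from the RefSeq start site in bases on the x axis. All 15 matches lie within 106 bases before the start site, and Irf7 has none.

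On mm10, Irgm1 lies at chr11:48861968-48871683 (minus strand), and 99.6% of its 50-base sequences occur in no other GENCODE gene, so few reads could have come from a copy. Irgm2 (chr11:58199618-58222782) and Igtp (chr11:58199556-58207591), both on the plus strand, overlap in 162 exonic bases and were given a single joint locus in the tables, so reads there could be assigned to either. Gbp7 (chr3:142530342-142550149), Gbp3 (chr3:142560026-142573209) and Gbp2 (chr3:142620602-142638008) lie side by side on the plus strand of chromosome 3. Tgtp1 (chr11:48985327-48994172, minus strand) is the uncertain member, since only 18.8% of its 50-base sequences are its own and most others are shared with the near-copy Tgtp2. Irf1 lies at chr11:53770014-53778374 (plus strand) and Irf7 at chr7:141262706-141266481 (minus strand). Both overlap a gene on the opposite strand, Gm17334 by 135 and Phrf1 by 45 exonic bases, and the library method does not mark strand.

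The target of the deletion followed the labels. Tfeb stood at 0.901 FPKM in flox/flox and 0.185 in ΔIEC cells on Day 0, at 1.08 and 0 on Day 4, and at 1.18 and 0 on Day 11. The epithelial adhesion molecule gene Epcam was at 1109 FPKM or more in all 6 groups. The pan-leukocyte gene Ptprc was under 1 FPKM in all 6 groups, at 0.37 FPKM in flox/flox and 0.33 in ΔIEC cells on Day 0, 0.36 and 0.79 on Day 4, and 0.29 and 0.78 on Day 11, and some other leukocyte markers, described further on, had higher levels. In bulk samples such as these, fewer cells of a type and less RNA per cell cannot be told apart. Within a genotype, the Day 4 and Day 11 values were close for most genes. Over genes above 0 on both days, 97.3% of the flox/flox values and 97.4% of the ΔIEC values were within 1.5-fold of each other, and 14.3% and 10.2% were identical. A few genes differed far more, with Day 11 to Day 4 ratios from 2.19e-05 to 57103 in flox/flox and from 0.000159 to 21261 in ΔIEC cells. Of the genes described here, Gbp7 and Igtp had identical flox/flox values on both days, and Day 11 to Day 4 ratios ranged from 0.943 to 1 in flox/flox and from 0.821 to 1.02 in ΔIEC cells. Day 11 is therefore reported beside Day 4 and not as a second observation of it. The 3 tables were also normalized separately, which affects every level set across days.

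Irgm1, the GTPase that regulates the other IRG proteins and autophagic clearance, showed the largest genotype difference of the 9. Its level was 9.07 FPKM in flox/flox and 7.47 in ΔIEC cells on Day 0. On Day 4 it was 2.57 FPKM in flox/flox and 17.7 in ΔIEC cells, and on Day 11 it was 2.45 and 16.8. The controls were thus the lower group only in the DSS samples. ΔIEC cells held 6.89-fold more on Day 4, a log2 fold change (ΔIEC over flox/flox, on log2(FPKM + 1)) of 2.39, and 6.84-fold more on Day 11. The Day 4 gap had 2 sides: the flox/flox level of Day 4 was 3.53-fold below that of Day 0, and the ΔIEC level was 2.37-fold above. Among the 9371 genes with at least 1 FPKM in either genotype on Day 4, 4.48% had a difference at least as high as that of Irgm1.

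The other GTPases were much less abundant. Igtp, a sister of Irgm1 that also guards host membranes, stood at 0.80 FPKM in flox/flox and 0.24 in ΔIEC cells on Day 0. On Day 4 it stood at 1.21 and 4.02 FPKM, a 3.32-fold difference, and on Day 11 at 1.21 and 3.70. Its Day 4 log2 fold change was 1.18 with a pseudocount of 1 FPKM and 0.54 with one of 5. Irgm2, the remaining sister, stood at 0.38 and 0.12 FPKM on Day 0, at 0.46 and 1.03 on Day 4 and at 0.43 and 0.99 on Day 11. Both were lower in ΔIEC cells on Day 0 and higher on Days 4 and 11, but every Day 0 value of theirs was under 1 FPKM, and Irgm2 had -0.17 on Day 4 after the centring on transcript length described further on. Tgtp1, an IRG effector that coats vacuoles, was listed at 0 in 4 of 6 groups and reached 0.10 FPKM at most, in ΔIEC cells on Day 4.

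The GBP genes encode larger GTPases that help to open such vacuoles and to start inflammasome signalling. Gbp2 stood at 0.18 FPKM in flox/flox and 0.16 in ΔIEC cells on Day 0, at 0.69 and 1.53 on Day 4, and at 0.69 and 1.54 on Day 11. Gbp7 stood at 0.08 and 0.07 FPKM on Day 0, at 0.20 and 0.54 on Day 4 and at 0.20 and 0.53 on Day 11. Gbp3 was listed at 0 in flox/flox cells on all 3 days and stood at 0.16, 0.50 and 0.50 FPKM in ΔIEC cells. All 3 were thus higher in ΔIEC cells on Day 4, by 0.58 (Gbp2), 0.35 (Gbp7) and 0.59 (Gbp3) on the log2(FPKM + 1) scale, differences that stayed under 2-fold on that scale and were -0.06, -0.26 and -0.05 after the same centring. For Gbp2 the difference was past 2-fold with a pseudocount of 0.1 (1.04) and after division of each group by its summed FPKM (1.02).

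**Figure D2:**
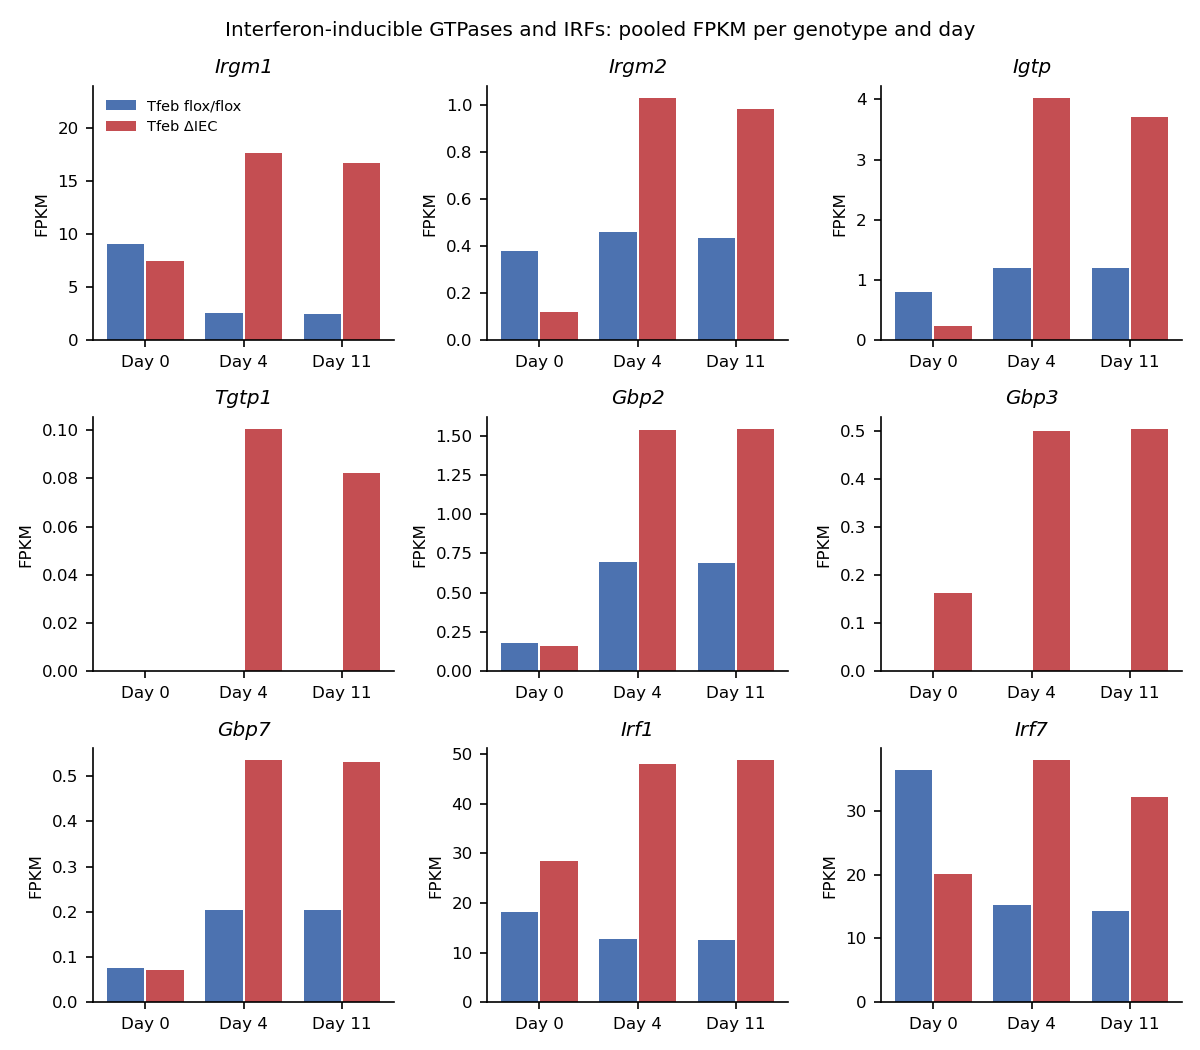
FPKM of the 9 genes on Days 0, 4 and 11 in flox/flox (blue) and ΔIEC (red) cells; each bar is the authors' single value from 2 animals, without error bars, and the y axes differ between genes. On Day 4 the red bar is the taller one for each gene, with 17.7 against 2.57 FPKM for Irgm1.

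Irf1, the factor that interferon gamma induces through its GAS, was the most abundant of the 9 on Day 4 in ΔIEC cells. It stood at 18.1 FPKM in flox/flox and 28.4 in ΔIEC cells on Day 0, at 12.8 and 47.9 on Day 4, and at 12.5 and 48.8 on Day 11. It was the only 1 of the 3 genes above 1 FPKM on Day 0 that was already higher in ΔIEC cells then, by 1.57-fold. On Day 4 the difference was 3.76-fold. Irf7 stood at 36.3 FPKM in flox/flox and 20.1 in ΔIEC cells on Day 0, at 15.2 and 37.9 on Day 4, and at 14.4 and 32.2 on Day 11. Its order was thus the reverse on Day 0, when flox/flox cells held 1.81-fold more, of that on Day 4, when ΔIEC cells held 2.49-fold more.

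A gene was counted as higher or lower where log2(FPKM + 1) differed by at least 1 (2-fold) and either genotype had at least 1 FPKM. On Day 0, 3 of the 9 genes were measured at that level (Irgm1, Irf1 and Irf7), and 0 were counted as higher and 0 as lower, when 13.5% of all genes were higher and 16.1% lower. On Day 4, 6 reached the level, and 4 were higher (Irgm1, Irf1, Irf7 and Igtp) and 0 lower, against 25.6% of all genes higher and 26.1% lower. Division of each group by its summed FPKM turned these shares into 41.6% and 16.1%, and 5 of the 9 genes were then higher and 0 lower. On Day 11, 5 reached it and the same 4 were higher, with 0 lower, against 26.1% higher and 25.7% lower. Igtp, Gbp2 and Irgm2 reached 1 FPKM on Day 4 in ΔIEC cells, and of these 3 only Igtp did so in flox/flox cells as well. The other 3 genes (Gbp3, Gbp7 and Tgtp1) stayed under 1 FPKM in every group.

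The rest of both GTPase families was near the floor of the measurement. Of the 16 IRG genes listed, 5 reached 1 FPKM in any group and 3 were listed at 0 in all 6. The 2 that are not described above were Ifi47 and Iigp1. Ifi47, another interferon-induced IRG gene, stood at 3.10 FPKM in flox/flox and 1.82 in ΔIEC cells on Day 0 and at 2.36 and 5.08 on Day 4. Iigp1, an effector that coats vacuoles, was listed at 0 in both genotypes on Day 0 and stood at 0.38 and 2.17 FPKM on Day 4. On Day 4, 5 IRG genes were used, with 3 higher (Irgm1, Iigp1 and Igtp) and 0 lower, against 25.6% and 26.1% of all genes. Iigp1 reached 1 FPKM in ΔIEC cells only. With a pseudocount of 0.1 all 5 were higher (32.6% of all genes), and after division by the summed FPKM 4 were (41.6%). With a pseudocount of 5 (9.33%), or with a filter at 5 FPKM (27.4%), Irgm1 was the 1 that was higher, and after centring on transcript length 2 were, Irgm1 and Igtp (20.1%). Of 13 GBP and giant GTPase genes, Gbp2 alone reached 1 FPKM, and 7 were listed at 0 in all 6 groups.

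The IRF family was split. Of 8 genes used on Day 4, 4 were higher, Irf1, Irf7 and Irf9 among them, and 2 lower in ΔIEC cells, against 25.6% and 26.1% of all genes. After centring on transcript length, 2 were higher and 2 lower, beside 20.1% and 20.8% of all genes, and Irf7 (0.73) and Irf9 (0.93) were under 2-fold. Irf9, the DNA-binding partner of STAT2, stood at 0.39 FPKM in flox/flox and 3.13 in ΔIEC cells on Day 4, against 1.73 and 2.13 on Day 0. Irf2, known as an antagonist of Irf1 at the same sites, went the other way, with 17.6 FPKM in flox/flox and 3.68 in ΔIEC cells, and so did Irf3, the factor that starts interferon transcription, with 21.2 and 8.62. Irf2 was the 1 lower gene with a pseudocount of 5 and after division by the summed FPKM, when Irf3 was under 2-fold. Irf8 (33.1 and 26.1) and Irf5 (1.61 and 1.75) differed by less than 2-fold on Day 4. Irf8 shares a locus in the tables with other genes. The 3 binding proteins Irf2bp1, Irf2bp2 and Irf2bpl were under 1 FPKM in both genotypes that day.

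Upstream of the 9 genes, both chains of the interferon gamma receptor were higher in ΔIEC cells on Day 4 as deposited. Ifngr1, its ligand-binding chain, stood at 11.7 FPKM in flox/flox and 100.7 in ΔIEC cells on Day 4, and at 37.9 and 60.8 on Day 0. Ifngr2, the second chain, stood at 38.6 and 92.6 FPKM on Day 4. Stat2, a carrier of the type I and III signal, stood at 1.59 and 1.08 FPKM. Socs1, a feedback inhibitor that interferon gamma induces, was listed at 0 in flox/flox cells on Days 0 and 4. In ΔIEC cells it stood at 1.15 FPKM on Day 0 and at 0.27 on Day 4. Stat3, which carries interleukin signals in the epithelium, stood at 7.74 and 20.3 FPKM. Of 13 receptor and signalling genes used on Day 4, 5 were higher (Ifngr1, Ifngr2, Stat3, Ptpn6 and the kinase gene Jak1) and 0 lower, with a median log2 fold change of 0.66 beside 0.06 for all genes, of which 25.6% were higher and 26.1% lower. After centring on transcript length, 2 were higher (Ifngr1 and Ptpn6) and 2 lower, beside 20.1% and 20.8% of all genes, with Ifngr2 at 0.63, Stat3 at 0.67 and Jak1 at 0.65. After division of each group by its summed FPKM, 9 were higher and 0 lower, beside 41.6% and 16.1% of all genes. Ptpn6, a phosphatase that dampens cytokine signals, was at 165.9 FPKM in ΔIEC cells on Day 4 but at 7.24 on Day 11, unlike most genes of these tables. Of 26 interferon and inducing cytokine genes, 24 were listed at 0 in both genotypes on each day, including Ifng, Ifnb1, Ifnl2 and Ifnl3. Il18, which epithelial cells make and which promotes interferon gamma release, stood at 80.9 FPKM in flox/flox and 52.5 in ΔIEC cells on Day 4, and at 19.4 and 25.0 on Day 0. Its Day 4 log2 fold change was -0.61 as deposited and 0.68 after centring on transcript length, so its direction depended on the processing.

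Genes known for induction by interferon gamma went both ways. Of 24 used on Day 4, 6 were higher (25.0%, beside 25.6% of all genes), 4 lower (16.7%, beside 26.1%) and 14 neither, with a median log2 fold change of 0.56. When each group was divided by the sum of its FPKM values, 15 were higher and 0 lower, beside 41.6% and 16.1% of all genes, and the median of all genes moved from 0.06 to 0.68. The higher ones included Cd74, the chaperone of MHC class II (20.5 FPKM in flox/flox and 165.1 in ΔIEC cells), Wars, a tRNA synthetase (4.82 and 32.3), and Aim2, a DNA sensor (0 and 4.20). Tap1, the peptide transporter of MHC class I, was higher as well (1.98 and 9.23), as were Casp1, the inflammasome protease (15.4 and 75.4), and Lap3, an aminopeptidase (3.56 and 16.1). The immunoproteasome genes Psmb8 (143.4 and 57.0), Psmb9 (43.2 and 17.4) and Psmb10 (279.9 and 86.6), which act with Tap1 in the same pathway, were lower. B2m, the light chain of MHC class I, stood at 2305 and 1349 FPKM, under 2-fold. The class II genes H2-Aa (12.1 and 23.7) and H2-Ab1 (19.7 and 31.1), which interferon gamma switches on in epithelium through Ciita, were under 2-fold as deposited (0.92 and 0.63 on the log2 scale) and past it after centring on transcript length (1.58 and 1.29), when 8 genes of the list were higher and 5 lower, beside 20.1% and 20.8% of all genes. Cxcl10, a chemokine that draws T cells, was the remaining lower gene, at 1.19 FPKM in flox/flox and listed at 0 in ΔIEC cells. Cxcl9, a chemokine that interferon gamma induces in particular, was listed at 0 and stood at 0.098, and the class I regulator Nlrc5 was at 0.04 FPKM or less in both.

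Genes known for induction by type I and type III interferon were more often lower than higher as deposited, with 8 of 39 used on Day 4 higher (20.5%, beside 25.6% of all genes), 15 lower (38.5%, beside 26.1%) and 16 neither, and more often higher after division by the summed FPKM, with 15 higher and 8 lower, beside 41.6% and 16.1% of all genes. The median as deposited was -0.18. Isg15, a ubiquitin-like modifier and one of the most strongly induced antiviral genes, stood at 8.56 FPKM in flox/flox and 1.19 in ΔIEC cells. Xaf1 (18.1 and 1.44) and Bst2, which tethers viruses to the cell surface (18.6 and 2.63), were lower as well. Ifit1bl1 (4.07 and 22.2), Rsad2, the antiviral enzyme viperin (0.39 and 3.17), and Tor3a (1.10 and 4.69) were higher. After centring on transcript length, Isg15 (-0.83) and Rsad2 (0.97) were under 2-fold, and the list had 4 higher and 13 lower genes, beside 20.1% and 20.8% of all genes. Ifit1, an antiviral RNA-binding protein (1.38 and 3.38), was under 2-fold on the log2(FPKM + 1) scale, and Ifit3 (0.61 and 0.68) and Oas2 (0.26 and 0.37) stayed under 1 FPKM. On Day 0, 3 of 31 genes of this list were higher and 11 lower, and 1 of 23 genes of the interferon gamma list was higher and 8 lower, beside 13.5% higher and 16.1% lower of all genes, so that both lists had medians below 0 before DSS (-0.54 and -0.80).

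**Figure D3:**
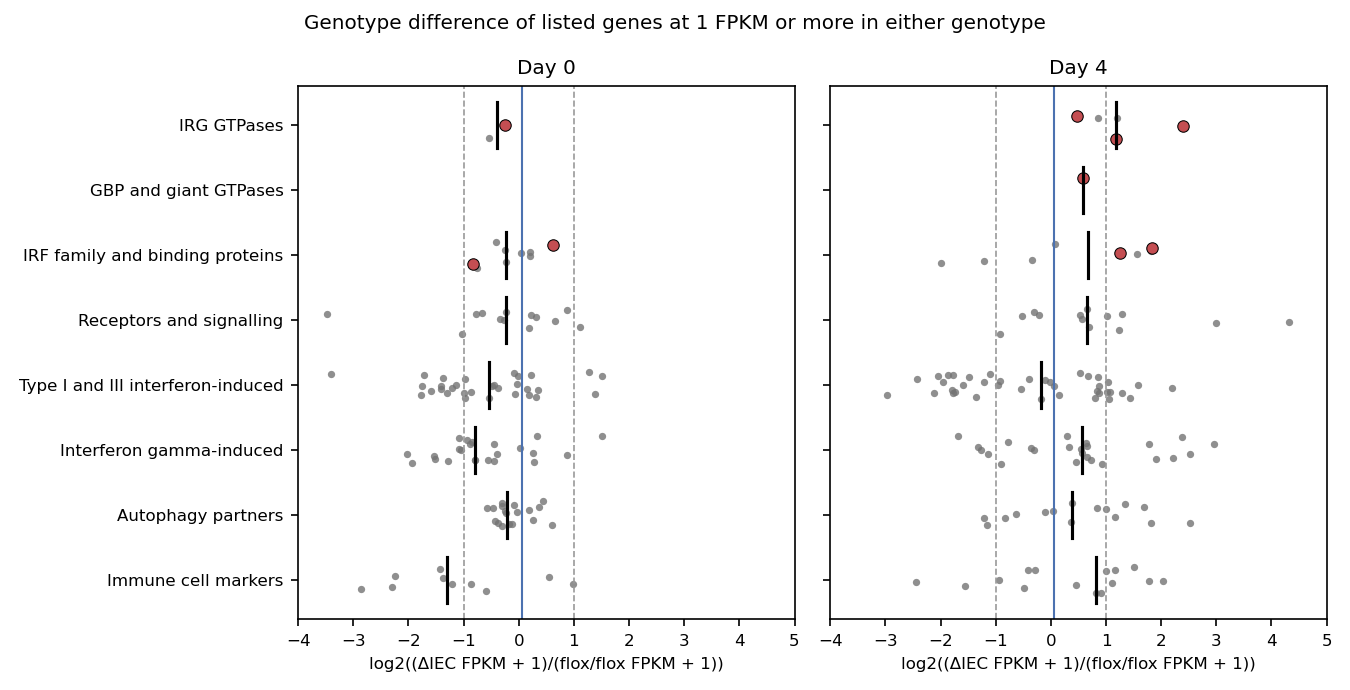
Log2 fold change (ΔIEC over flox/flox, log2(FPKM + 1) scale) of every listed gene with at least 1 FPKM in either genotype, on Day 0 and Day 4. Red points are genes among the 9, grey points are the other genes of a list, black bars are list medians, the blue line is the median of all genes and the dashed lines mark 2-fold. On Day 4 the 6 red genes lie to the right of 0 (Gbp2 and Irgm2 lie at -0.06 and -0.17 after centring on transcript length), while the type I and III list spreads to both sides with a median of -0.18.

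The direction of these genes went with the length of their transcripts, and so did that of all genes. On Day 4 the median log2 fold change of all genes was -1.89 among genes of at most 485 nt and 0.65 among those of 2827 to 3482 nt, when genes were put into 10 classes of equal size by annotated transcript length. Of the interferon-induced genes of both lists under 1500 nt, 24 were used, of which 4 were higher and 14 lower, with a median of -1.17. Among all genes under 1500 nt, 15.7% were higher and 47.0% lower, with a median of -0.86. Of those with at least 1500 nt, 39 were used, of which 10 were higher and 5 lower, with a median of 0.55, against 32.1% and 12.3% of all such genes and a median of 0.51. The 9 genes described here all have annotated lengths above 1500 nt, from 1832 nt for Igtp to 4056 nt for Gbp7. With the median of the same length class subtracted, Irgm1 kept a Day 4 difference of 1.85, Irf1 1.29 and Igtp 1.01, whereas Irf7 had 0.73, Gbp2 -0.06 and Irgm2 -0.17. After that step 3 of the 9 were higher by 2-fold on Day 4 and 2 on Day 11 (against 20.1% of all genes on each day), and 0 were lower (against 20.8% on Day 4). Within its own length class, 6.09% of 936 genes had a Day 4 difference at least as high as that of Irgm1, 13.7% one as high as Irf1 and 26.4% one as high as Irf7. Of the other genes named here as higher or lower on Day 4, Iigp1 (0.55), Map1lc3a (-0.50) and Igkc (-0.26) were also under 2-fold after centring. The part of transcript length in these differences was not tested.

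**Figure D4:**
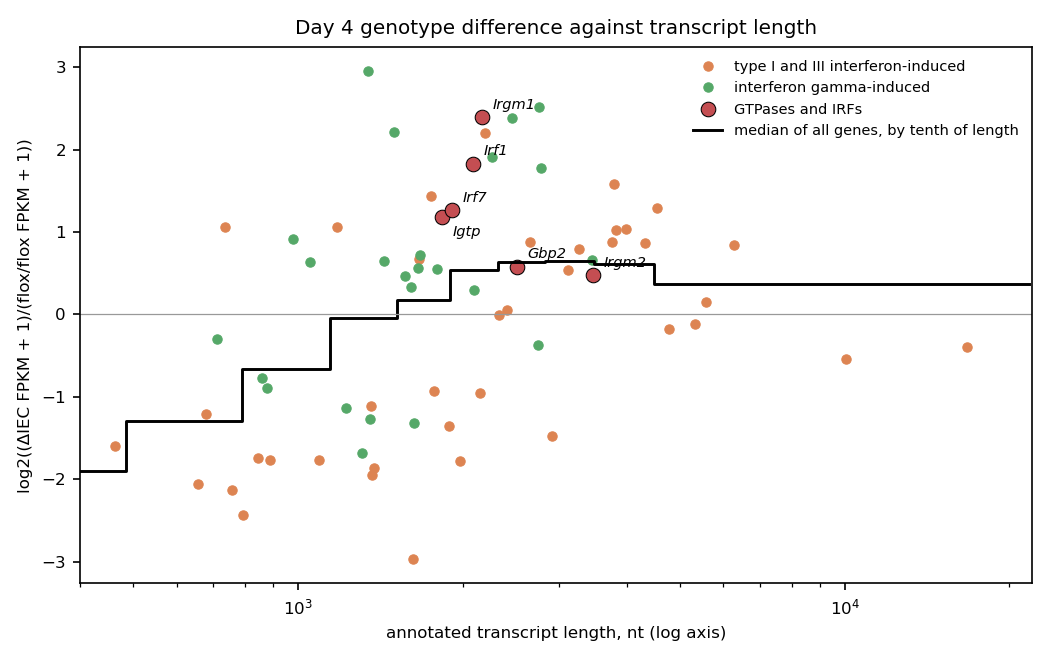
Day 4 log2 fold change against annotated transcript length (log axis, nt) for the genes among the 9 that reached 1 FPKM (red, named) and for both lists of interferon-induced genes (orange and green), with the median of all genes in each of the 10 length classes as a black line. Irgm1, at 2.39, lies above the line, and Gbp2 (0.58) and Irgm2 (0.48) lie close to it.

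Autophagy and ubiquitin genes that act with the GTPases are a further set that could move with Irgm1. Of 15 autophagy and ubiquitin genes used on Day 4, 5 were higher (33.3%, beside 25.6% of all genes) and 2 lower (13.3%, beside 26.1%). With a pseudocount of 5 the counts were 1 and 0 (9.33% and 13.6% of all genes), after division by the summed FPKM 8 and 0 (41.6% and 16.1%), and after centring on transcript length 4 and 3 (20.1% and 20.8%). Sqstm1, the receptor p62 that links ubiquitin to autophagosomes, stood at 69.7 FPKM in flox/flox and 68.2 in ΔIEC cells on Day 0 and at 17.5 and 105.8 on Day 4. Gabarapl1, a protein of autophagosome membranes (0 and 2.54), and Atg7, which activates such proteins (0.26 and 3.07), were higher, and Ulk1, the kinase that starts autophagy (1.55 and 0.10), and Map1lc3a (20.3 and 8.55) were lower on Day 4. Sqstm1 thus had the pattern of Irgm1, with a lower flox/flox level and a higher ΔIEC level on Day 4 than on Day 0.

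The genes nearest to Irgm1 in pattern were sought among 8615 genes with a mean of at least 1 FPKM, by the Euclidean distance between their 6 values of log2(FPKM + 1), each centred on its own mean. Among the 5 nearest were Gm18588 (distance 0.202), Gm4482 (0.271), Gm6733 (0.352) and Cldn4 (0.364). Cldn4, a tight junction protein, stood at 0.71 FPKM in flox/flox and 7.13 in ΔIEC cells on Day 4. The other 3 are known by gene model numbers only. Of the other 8 genes, those with a mean of at least 1 FPKM were Irf1, which ranked 258th in nearness to Irgm1, Irf7, which ranked 806th, and Igtp, which ranked 2831st. Of the 22 ranked genes of the interferon gamma list, 5 were within the nearest 500 of the 8615, a limit set after the values were seen. They were Wars (11th), Casp1 (19th), Lap3 (96th), Tap1 (116th) and Aim2 (206th), and the median rank over the list was 4376.5. Of 15 autophagy and ubiquitin genes 2 were within that limit (Sqstm1 56th and Atg7 477th), with a median rank of 3017. Of 35 genes of the type I and III list 0 were, with Ifih1 the nearest at 560th and a median rank of 5675. Of 15 epithelial markers 2 were (Vil1 108th and Slc26a3 159th), with a median rank of 2666. Of 8 IRF genes 3 were, Irf9 (236th) and Irf1 among them, with a median of 2931. Of 13 receptor and signalling genes 1 was, with a median of 2184, and of 13 immune markers 1 was, with a median of 2948. Of 5 small intestine markers 0 were, with a median of 1310. These are 6 pooled values per gene, and 4 of them come from Days 4 and 11, whose values were close for most genes.

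Leukocytes, another cell type that an epithelial preparation of inflamed colon can hold, also carry interferon-induced genes. Of 30 immune cell markers, 15 were used on Day 4, of which 6 were higher and 2 lower in ΔIEC cells, beside 25.6% and 26.1% of all genes, with a median log2 fold change of 0.83 beside 0.06 for all genes. After centring on transcript length, 8 were higher and 1 lower, beside 20.1% and 20.8% of all genes, with a median of 1.14. Cd14 (1.46 and 9.11 FPKM) and Nkg7 (0 and 1.84) were higher, and Tyrobp (4.47 and 0) and Igkc (98.8 and 33.1) were lower. Summed over the list, markers came to 198 FPKM in flox/flox and 50.6 in ΔIEC cells on Day 0, 137 and 88.2 on Day 4, and 138 and 90.9 on Day 11. Igkc, an antibody light chain gene of plasma cells, held most of these sums in flox/flox. Without Igkc, left out after the values were seen, the other 29 markers came to 42.4 and 18.5 FPKM on Day 0, 38.5 and 55.02 on Day 4, and 38.9 and 58.1 on Day 11, so that the sum was higher in ΔIEC cells on both DSS days. Cd4, Cd68, Adgre1 and S100a9 were listed at 0 in all 6 groups. Their part in the levels of the GTPases and IRFs was not tested.

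The other marker lists describe the preparation. Of 15 epithelial markers used on Day 4, 7 were higher (46.7%, beside 25.6% of all genes), among them Krt20, a keratin of mature colonocytes (101.4 FPKM in flox/flox and 931.4 in ΔIEC cells), Slc26a3, a chloride exchanger (33.3 and 270.6), and Vil1, the gene whose promoter drives the Cre (30.6 and 224.4), and 1 was lower, the intestinal identity factor Cdx1 (25.9 and 6.98), that is 6.67% beside 26.1% of all genes. The 3 named as higher had the largest differences of the list, whose median log2 fold change was 0.58. Epcam (0.58), Krt18 (0.24), Krt19 (-0.01), Krt8 (-0.33) and Car4 (-0.66), as log2 fold changes, were under 2-fold. Of 10 stromal and endothelial markers, only Vim reached 1 FPKM (4.34 and 2.94 on Day 0). Of 10 markers of the small intestine, 5 were used, with Slc5a1 (2.76 and 13.8), Rbp2 (1.24 and 7.56) and Alpi (0 and 1.66) higher and Fabp6 (23.96 and 2.65) lower in ΔIEC cells, beside 25.6% and 26.1% of all genes. After centring on transcript length, 2 were higher and 0 lower, beside 20.1% and 20.8% of all genes, with Alpi at 0.78 and Fabp6 at -0.88.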

How the data were processed

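RNA-seq of colon epithelial cells was used for 6 groups of 2 animals, assigned by genotype and day from the labels. Full-length cDNA (a SmartSeq2 variation) was sequenced as paired ends on a MiSeq. The authors mapped reads to mm10 with TopHat2 2.0.14 and compared genotypes within each day with Cuffdiff 2.1.1. The deposited tables hold FPKM values, 1 per genotype and day, pooled over both animals and scaled within that day. They also hold the authors' fold changes, p-values and q-values, which were not used. The files do not state read depth, and no interval that needs it is given.

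Genotype differences are on the log2(FPKM + 1) scale. Genes with at least 1 FPKM in either genotype were counted as higher or lower from 2-fold. No test was run, since each group is 1 value. Transcript length is the median over GENCODE M21 transcripts (47218 genes). Promoter sequences are from RefSeq (GRCm38.p6), and all 9 genes had an entry. A symbol found on more than 1 row was resolved by its Ensembl identifier. Protein sequences were not analysed here. Named genes are the 9, the IRG, GBP and IRF genes of at least 1 FPKM, 19 preset pathway genes, up to 3 genes per list and direction with the largest Day 4 difference, and the 5 nearest to Irgm1; the results of 4 genes under this rule are not reported here. Others (Ifngr2, Jak1, Il18, Casp1, Lap3, H2-Aa, H2-Ab1, Epcam, Krt8, Krt18, Krt19, Car4, Ptprc, Vim, Ifih1, and interferon genes and immune markers listed at 0) were named after their values were seen. The genes and lists were chosen with earlier results of these data known. Alternatives were pseudocounts, filters, thresholds, division by the summed values and centring. Scripts (Python 3.11.15, numpy 2.4.6, pandas 2.3.3, matplotlib 3.10.9) were tested on simulated data.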

Additional observations from a re-analysis of the deposited data

Results flagged for a closer look

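Among the 9 genes, those at 1 FPKM or more in either genotype both on Day 0 and on the later day included 2, Irgm1 and Irf7, whose genotype difference had opposite signs before and after DSS. Genes under 1 FPKM on Day 0, Igtp and Irgm2 among them, were not considered here, although their small differences also changed sign. For Irgm1 the log2 fold change (ΔIEC over flox/flox) was higher by 2.64 on Day 4 and by 2.61 on Day 11 than on Day 0. For Irf7 it was higher by 2.08 on Day 4 and by 1.93 on Day 11 than on Day 0. Each of these values comes from 1 pooled value per genotype and day and from tables normalized separately, and the differences between days were not tested.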

How the results depend on the processing

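No paired analysis was possible because each genotype has 1 pooled value per day, and for the same reason no animal could be left out. Division of each group by its summed FPKM moved the median of all genes on Day 4 from 0.06 to 0.68 and the higher share of all genes past 2-fold from 49.6% to 72.1%. Under it the type I and III list had 15 higher and 8 lower genes on Day 4 and the interferon gamma list 15 and 0, in place of 8 and 15, and 6 and 4. The Day 4 counts of the 9 genes (4 higher, 0 lower) were the same or within 1.5 times under every alternative but the 4-fold threshold (1 higher). On Day 11 the 4 higher became 1 at 4-fold, 2 with a pseudocount of 5 and 2 after centring on length. At 1.5-fold, 1 was higher and 1 lower on Day 0. The median over those of the 9 that passed the filter (1.22 on Day 4, 1.11 on Day 11) was 1.91 and 1.91 after division by the summed FPKM, 1.83 and 1.88 with a filter at 5 FPKM, 1.48 and 1.54 with a pseudocount of 0.1, 0.81 and 0.94 with a pseudocount of 5, 0.87 and 0.84 after centring on length, and 0.59 and 0.59 without a filter. For the type I and III list on Day 4, the higher count was 13 with a pseudocount of 0.1, 1 with 5, 5 after centring on the median, 4 after centring on length, 2 at 5 FPKM, 1 at 4-fold and 14 at 1.5-fold, and the lower count was 4 at 4-fold. For the interferon gamma list it was 11 higher at 1.5-fold and 0 lower at 4-fold. The 3 higher IRG genes on Day 4 became 5 with a pseudocount of 0.1, 4 after division by the summed FPKM, 1 with a pseudocount of 5 and 1 at 5 FPKM. The 2 lower IRF genes became 1 with a pseudocount of 5 and 1 after division. The summed immune markers, ΔIEC minus flox/flox, were -49.2 FPKM on Day 4 and -47.2 on Day 11, and 16.5 and 19.2 without Igkc, an alternative chosen after seeing the data. Restriction to genes with status OK moved none of these counts past 1.5 times. The causes were not tested. The smallest difference that reads could show is unknown, since depth is unknown.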
